A study of Rattus norvegicus with 3 samples.

Results

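The 6 genes described here, of 34034 in each count table, make up the route by which sphingosine 1-phosphate (S1P) guides T cells out of the thymus, and they were chosen by name for that role. They are S1pr1, the S1P receptor of T cells; Klf2, a zinc-finger transcription factor that switches S1pr1 on; Sphk1, a kinase that makes S1P from sphingosine; Spns2, a transporter that exports S1P; and Plpp3 and Sgpl1, which break S1P down. All 6 were present in both tables.

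The thymi came from Lewis rats 8 weeks old, an inbred strain, with no treatment or engineered allele named for any group. For the stromal library, Liberase TH with DNase I freed the cells, of which the CD45-negative ones were enriched on magnetic beads and then by flow sorting. For the thymocyte library, collagenase D was used with DNase I, and both libraries were made with 10x Genomics droplet chemistry. A spatial section, the third sample, was not analysed here, since its deposited tables give no value per gene, and whether thymi were pooled is not given in the sources used here.

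S1P is a lipid kept high in blood and lymph and low inside tissues, and a T cell that carries S1pr1 leaves the thymus along that gradient through vessels near the corticomedullary border. Thymocytes gain the receptor late, after positive selection, when Klf2 also turns on the homing genes of naive T cells, and the surface protein Cd69 holds the receptor inside the cell until then. Outside the thymocytes, vessel and stromal cells make and export S1P, while lipid phosphatases at the cell surface and the S1P lyase inside cells remove it.

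The stromal library had 13226 annotated cells and 131624350 unique molecular identifiers (UMIs, 1 for each RNA molecule caught), and its median cell held 9087.5. The thymocyte library had 8546 annotated cells and 64440495 UMIs, and its median cell held 3994. Cells were grouped by the authors' labels, whose abbreviations are kept, and levels are given for the 24 stromal and 21 thymocyte labels of at least 20 cells. A level is the gene's UMIs summed over a label's cells, scaled to 1000000 UMIs of the label (CPM). Each group was 1 library, so cells are not replicates, no test between groups was possible, and each 95% interval given in brackets covers counting error only. Levels of different genes are not compared. The libraries shared 38 cell barcodes, of which 28 were annotated in both, and the pooled ratios and counts recomputed without those cells moved by less than their counting error (S1pr1 in mature single-positive over DP cells from 121 to 119 times).

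Some labels held RNA of classes that their names do not give. The label nmSC (39 cells) had 448 CPM of Lyve1 and 91.7 CPM of Prox1, both lymphatic endothelial markers, with a summed endothelial marker level of 660 CPM. Only 15.4% of its cells had a Lyve1 UMI and 10.3% a Prox1 UMI. The label aaTEC2 (29 cells), named as epithelial, had 28587 CPM over 4 fibroblast markers. The Thymocyte label of the CD45-negative library had 11440 CPM of the same fibroblast markers. Fibroblast RNA was thus present in cells labelled as other types in that library, and how it came there was not tested.

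S1pr1 was low through the early thymocyte stages and high in the mature ones. In double-negative (DN) cells, the earliest stage in the thymus, it was 1.85 CPM [1.13 to 2.85], in proliferating double-positive cells (DP-P) 2.57 [1.87 to 3.45], and in resting double-positive cells (DP) 1.32 [0.855 to 1.95]. Pre DP-sig was at 4.17 CPM [1.35 to 9.72] and DP-sig at 3.10 [0.846 to 7.95]. Of the first immature single-positive labels, Immature CD4-1 was at 2.61 [0.316 to 9.41] from 2 UMIs and Immature CD8-1 at 3.05 [0.629 to 8.91] from 3 UMIs. These 7 labels all lay under 5 CPM, and each of the last 4 had an interval that overlapped that of DP.

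The step up lay between the first and the second immature label of each lineage. Immature CD4-2 had 44.1 CPM [30.9 to 61.1] and Immature CD8-2 had 62.8 [43.5 to 87.8], the latter 20.6 times the level of Immature CD8-1 [6.48 to 105]. The label intCD4 was at 45.2 CPM [24.0 to 77.2]. Of the mature labels, Mature CD4-1 had 219 CPM [192 to 250], Mature CD8-1 161 [137 to 189] and Mature CD4-2 152 [131 to 176]. Mature CD4-1 was 4.97 times Immature CD4-2 [3.49 to 7.28], and Mature CD8-1 was 2.57 times Immature CD8-2 [1.76 to 3.84].

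The fourth mature label did not follow the other three. Mature CD8-2 (27 cells) had 29.0 CPM of S1pr1 [15.0 to 50.7], from 12 UMIs, within the counting error of Immature CD4-2 and 5.57 times lower than Mature CD8-1 [3.1 to 11]. Its Klf2 level was 188 CPM [149 to 235], 1.59 times lower than Mature CD8-1 [1.23 to 2.07].

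Cells with at least 1 S1pr1 UMI were 76.0% of Mature CD4-1 at a median of 7964 UMIs per cell, and 0.384% of DP at a median of 3205.5. In gamma-delta T cells (gdT), which had a median of 19803.5 UMIs, the share was 4.69%. With every cell thinned to 1000 UMIs, the shares were 16.5% in Mature CD4-1, 21.3% in Mature CD4-2, 8.79% in Mature CD8-1 and 0.136% in DP. Mature CD4-1 over Mature CD4-2 was 1.44 [1.18 to 1.76] in summed UMIs and 0.700 [0.389 to 1.24] in thinned cells. The thinned ratio spans 1, so no order of these 2 labels was shown at equal depth; as the mean of single cells' CPM the ratio was 1.36.

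Labels off the main path also carried the receptor. Treg had 97.8 CPM of S1pr1, Mature cycling T 88.7, Pre-Treg 76.1, AgoSel2 76.0 and AgoSel1 29.4. AgoSel2 was 2.59 times AgoSel1 [1.39 to 5.17], while Treg over Pre-Treg was 1.29 [0.764 to 2.16] and so not beyond counting error. The cycling mature cells had 34.5 times the level of DP-P, the other cycling label [23.4 to 51.2]. Over the whole order of 21 labels, 3 of 20 neighbouring pairs differed beyond counting error: Mature CD4-1 over Mature CD8-1 by 1.36 times, Mature CD4-2 over Treg by 1.56 times and Mature CD8-2 over B+myeloid by 6.30 times.

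**Figure D1:**
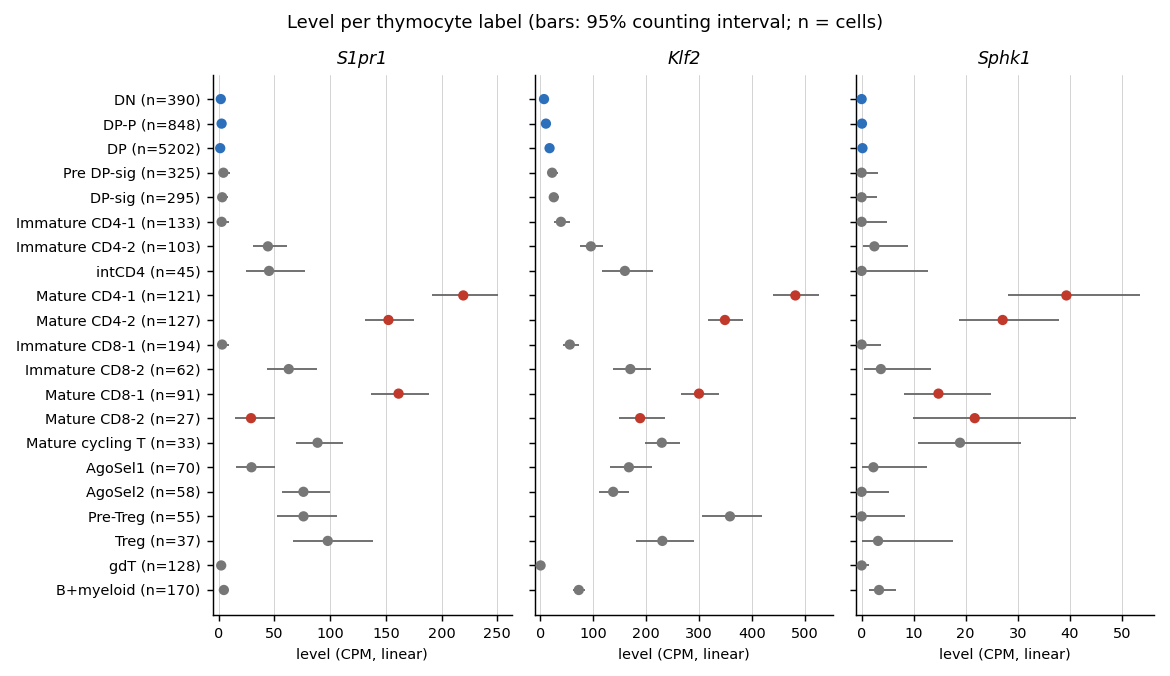
Level of S1pr1, Klf2 and Sphk1 in each thymocyte label, in CPM on linear axes, with points for the level and bars for the 95% counting interval; mature single-positive labels are red, DN, DP-P and DP are blue and the rest grey. S1pr1 and Klf2 were both highest in Mature CD4-1, at 219 and 481 CPM, and Sphk1 stood above 10 CPM in the mature and cycling mature labels alone.

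Klf2 went up through more of the labels between DN and the mature stages. It was 7.2 CPM [5.69 to 8.99] in DN, 10.8 [9.31 to 12.5] in DP-P and 17.7 [15.8 to 19.7] in DP. DP-sig had 25.6 CPM, 1.45 times DP [0.982 to 2.08], and Immature CD4-1 39.1, 1.53 times DP-sig [0.899 to 2.58], so neither step passed counting error. Immature CD8-1, at 55.9 CPM, was 2.18 times DP-sig [1.39 to 3.47], while its S1pr1 over DP-sig was 0.982 [0.144 to 5.81], an interval wide enough to hold the Klf2 ratio.

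In the second immature labels Klf2 was 95.6 CPM for CD4 and 170 for CD8, which was 2.45 times [1.59 to 3.86] and 3.04 times [2.15 to 4.33] the first immature label of the lineage. Mature CD4-1 had 481 CPM [440 to 526], Mature CD4-2 348 [317 to 383] and Mature CD8-1 300 [266 to 337]. With the labels of a lineage pooled, mature CD4 cells had 408 CPM of Klf2 against 266 in mature CD8 cells, 1.53 times higher [1.36 to 1.74]. For S1pr1 the same pools had 182 and 121 CPM, 1.51 times [1.25 to 1.81], but this rests on Mature CD8-2 with its 29.0 CPM: Mature CD8-1 alone, at 161 CPM, lay between the 2 CD4 labels. For Klf2, Mature CD8-1 was below both.

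Klf2 and S1pr1 did not have the same order in the regulatory and selection labels. Pre-Treg had 358 CPM of Klf2, the second highest label, and Treg 230, 0.644 times Pre-Treg [0.481 to 0.854]. AgoSel1 had 167 CPM of Klf2 and AgoSel2 138, a ratio of AgoSel2 to AgoSel1 of 0.823 [0.601 to 1.13], where S1pr1 was 2.59 times higher in AgoSel2. The lowest Klf2 level, 0.735 CPM from 2 UMIs in 128 cells, was that of gdT. For Klf2, 6 of 20 neighbouring pairs of labels differed beyond counting error.

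Within mature single-positive cells (366 cells of 4 labels), S1pr1 was detected in 73.1% [67.5 to 78.2] of the 279 cells with a Klf2 UMI and in 48.3% [37.4 to 59.2] of the 87 without, a difference of 24.8 percentage points. Within single labels the shares were 78.0% and 66.7% in Mature CD4-1 and 72.5% and 59.1% in Mature CD8-1, with overlapping intervals, and 75.5% [65.6 to 83.8] and 42.4% [25.5 to 60.8] in Mature CD4-2, with separate ones. Over all mature cells the median depth was 9592 UMIs in the first set and 9478 in the second. After thinning to 1000 UMIs the shares were 17.2% [10.2 to 26.4] of 93 cells and 14.7% [10.7 to 19.4] of 273, a difference of 2.55 points that lies within counting error. At 1000 UMIs, 273 of the 366 cells had no Klf2 UMI left. In AgoSel2, S1pr1 was detected in 70.0% [45.7 to 88.1] of 20 cells with Klf2 and in 5.26% [0.644 to 17.7] of 38 without, and thinning left 5 cells with Klf2 and none of them with S1pr1.

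For Cd69, whose protein pulls the receptor inside the cell, S1pr1 was detected in 70.4% [62.7 to 77.3] of the mature cells with a Cd69 UMI and in 64.7% [57.7 to 71.3] of those without, and the intervals overlapped.

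Pooled over the 4 mature labels and compared with DP, S1pr1 was 159 CPM against 1.32, 121 times higher [80.9 to 188]. Klf2 was 355 against 17.7 CPM, 20.1 times higher [17.8 to 22.7]. Sphk1 was 26.7 against 0.159 CPM, from 97 and 3 UMIs, a ratio of 168 [55.9 to 831] that fell to 42.3 [10.6 to 243] in thinned cells. Sgpl1 did not differ, at 17.1 and 17.0 CPM with a ratio of 1.01 [0.754 to 1.32]. Spns2 and Plpp3 had no UMI in mature cells, where a count of 3 would be 0.826 CPM, and 1.53 and 1.37 CPM in DP.

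Genes at least 2-fold apart were counted among those with at least 20 UMIs in both groups together. By that count 3 of the 6 genes were higher in mature cells and none was lower. Spns2 and Plpp3 could not be counted as lower: with mature cells set to 3 UMIs, they were under 2-fold below DP. Of all 12666 genes tested, 11.2% were higher and 19% lower. The median log2 ratio was 2.17 over the 6 genes and -0.32 over all genes tested. Endothelial cells also express S1pr1 and Klf2, and of their 4 markers Cdh5 and Kdr were at 0 in mature cells; the 4 summed to 30.6 CPM against 19.8 in DP, of which Pecam1 gave 29.2 and 19.1. The 4 epithelial markers were at 0 in mature cells. The 6 immediate early genes, which tissue digestion can raise, summed to 709 CPM in mature cells and 284 in DP, with 1479 in Immature CD4-1, where S1pr1 was at its low early level; their part in the Klf2 level was not tested.

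Of the 2 kinases that make S1P, Sphk1 was the one past 2-fold between mature thymocytes and DP. It was 39.4 CPM [28.1 to 53.6] in Mature CD4-1, 27.1 [18.8 to 37.9] in Mature CD4-2, 21.7 in Mature CD8-2, 18.9 in Mature cycling T and 14.8 [8.07 to 24.8] in Mature CD8-1. Of the 21 labels, 14 had fewer than 3 Sphk1 UMIs, among them DN with 0 UMIs, an upper limit of 0.341 CPM. Mature CD4 cells had 1.93 times the Sphk1 level of mature CD8 cells [1.19 to 3.23]. The other kinase, Sphk2, was 9.09 CPM in mature cells and 14.1 in DP, under 2-fold apart.

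Sgpl1, the lyase that destroys S1P inside the cell, was low along the thymocyte path. The label B+myeloid had 139 CPM [124 to 155], and the other 20 labels lay between 6.89 and 26.6 CPM, with 1 of 20 neighbouring pairs apart beyond counting error. The lowest was Mature CD4-1, at 6.89 CPM [2.77 to 14.2] from 7 UMIs, 0.262 times Mature CD4-2 [0.0977 to 0.602]. Mature CD4-1 was thus the label with the highest S1pr1, Klf2 and Sphk1 and the lowest Sgpl1 by point value. However, for S1pr1 no order with Mature CD4-2 was shown at equal depth. For Sphk1 it did not differ from Mature CD4-2, and for Sgpl1 from DN, beyond counting error. The B+myeloid cells with more myeloid than B-cell marker UMIs (113 cells) had 137 CPM of Sgpl1 and 72.4 of Plpp3, and those with more B-cell marker UMIs (34 cells) had 92.8 and 6.63 CPM. The 23 cells with equal numbers of both, which may be 0, had the highest levels, 263 CPM of Sgpl1 and 551 of Plpp3. The latter came from 109 of the label's 238 UMIs. These cells also had 20.2 CPM of Spns2 from 4 UMIs and 35.4 of Sphk1 from 7, at a median of 5582 UMIs. Their cell type was not tested. Spns2 was at 0 in 12 of 21 thymocyte labels and Plpp3 at 0 in 14.

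The other genes of the pathway were counted by list in the same contrast of mature cells with DP. Of 5 S1P receptor genes, 3 had enough UMIs to be tested: S1pr1 was higher, S1pr2 was lower, at 1.65 against 24.5 CPM (a ratio of 0.0673 [0.0246 to 0.148]), and S1pr4, a receptor of blood cells, was 42.4 against 29.2 CPM, under 2-fold apart. S1pr2, which in many cells opposes migration toward S1P, was 27.0 CPM in DN and 26.7 in DP-P, so its level was high where S1pr1 was low. Of 6 breakdown genes, 4 were tested and none passed 2-fold. Of 21 genes that supply sphingosine, 14 were tested; Degs1, a ceramide-making desaturase, was 19.4 times higher in mature cells and Degs2, its relative, was 0.0602 times the DP level.

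Among 14 regulators and relatives of Klf2, a list that holds Klf2 itself, 13 were tested, and 4 were higher, Klf2 included, and 4 lower in mature cells, against 11.2% and 19% of all genes tested. Foxo1, which acts upstream of Klf2 in T cells, was 252 CPM against 30.2, 8.35 times higher [7.51 to 9.28], and Klf4 and Klf10 were 4.01 and 2.40 times higher. Klf3, a repressor of the same family, Klf7, Foxo3 and Mef2d were between 0.249 and 0.4 times the DP level. Of 10 genes that control the receptor or its signal, 3 were higher, led by Cd69 at 108 against 5.55 CPM (19.5 times), and Dnm2, a dynamin of endocytosis, was lower at 0.266 times. Of 10 mature trafficking genes, a list that includes genes by which mature cells are recognised, 6 were higher and none lower, among them Il7r at 250 times and Ccr7 at 186 times.

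To see which genes had the pattern most like S1pr1, levels as log2(CPM + 10) were correlated over the 17 thymocyte labels of at least 50 cells, for 9838 genes with at least 200 UMIs. The labels share 1 library and differ in depth, so the coefficients are descriptions. The highest Pearson coefficients with S1pr1 were those of Scml4 (0.973), Faah (0.953), Klrk1 (0.944), Srcin1 (0.944) and Ms4a6c (0.943). Klf2 had 0.909 and Sphk1 0.766. For Klf2 the closest 4 were Foxo1 (0.974), Shisa5 (0.963), Tnfrsf14 (0.952) and Ms4a6c (0.949).

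In stroma, S1pr1 and Klf2 marked the endothelial labels. S1pr1 was 277 CPM [262 to 293] in capillary cells (capEC), 231 in arterial cells (aEC) and 215 in venous cells (vEC), with a UMI in 76.4%, 80.0% and 78.5% of cells. Klf2, which blood flow induces in endothelium, was 1534 CPM in capEC, 1162 in aEC and 629 in vEC. Klf2 in vEC was 0.410 times capEC [0.391 to 0.430], a larger gap than that of S1pr1, 0.778 [0.710 to 0.851]. S1pr1 in vEC over aEC was 0.932 [0.793 to 1.10], not beyond counting error. The immediate early sum was highest in vEC, at 8746 CPM, where Klf2 was lowest of the endothelial labels, against 6604 in capEC and 6112 in aEC. The part of the immediate early genes in the endothelial Klf2 levels was not tested.

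Outside these labels S1pr1 was 81.1 CPM in nmSC, where a minority of cells had lymphatic markers, and 18.3 or less elsewhere. It was 14.1 CPM in TMC4, 11.4 in TMC3, 10.4 in the mural label vSMC/PC, 2.71 in TMC1, 1.27 in TMC2 and 0.743 in capFb, so TMC3 was 8.92 times TMC2 [6.05 to 13.5]. Pooled endothelial cells (1072) had 248 CPM of S1pr1 against 4.65 in the pooled fibroblast labels capFb and TMC1 to TMC4 (8216 cells), 53.3 times higher [47.7 to 59.7]. Klf2 in the same pools was 1130 and 111 CPM, 10.2 times higher [9.91 to 10.5]. Among non-endothelial labels, Klf2 was highest in MEC, at 497 CPM over 48 cells, a label with a fibroblast marker sum of 13864 CPM.

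The promoter windows of S1pr1 and Plpp3 are shown because both genes, and Klf2, were highest in capEC among the endothelial labels, and Klf proteins bind the motif CACCC. Each runs from 250 bases before to 50 after the annotated start, RefSeq build GRCr8, which differs from the mRatBN7.2 build of the counts. The S1pr1 window is chr2:206314021-206314320 on the minus strand and the Plpp3 window chr5:125155750-125156049 on the plus strand. Capitals mark CACCC or, on the other strand, GGGTG, the only form of the motif searched.
S1pr1: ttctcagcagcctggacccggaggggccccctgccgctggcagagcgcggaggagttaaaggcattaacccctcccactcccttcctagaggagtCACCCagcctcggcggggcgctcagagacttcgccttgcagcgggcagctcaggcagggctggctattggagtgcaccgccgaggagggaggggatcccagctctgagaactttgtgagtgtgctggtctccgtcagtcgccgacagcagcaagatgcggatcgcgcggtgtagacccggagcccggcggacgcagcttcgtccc
Plpp3: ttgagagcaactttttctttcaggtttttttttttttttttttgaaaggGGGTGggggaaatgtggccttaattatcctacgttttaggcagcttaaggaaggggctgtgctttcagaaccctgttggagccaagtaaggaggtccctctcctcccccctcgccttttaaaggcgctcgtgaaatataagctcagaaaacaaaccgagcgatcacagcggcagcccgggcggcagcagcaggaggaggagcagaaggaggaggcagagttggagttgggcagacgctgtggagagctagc
The S1pr1 window held 1 match, at position 96 from its first base, and the Plpp3 window 1, at position 50 as GGGTG. Of 33469 rat promoter windows of this length, 54.9% held at least 1 match, so these 2 windows do not stand apart. A match is a run of letters and was not tested as a site. Of the 6 genes, 4 had windows in the table: Sgpl1 had 1 window with 1 match, Sphk1 had 3 windows with 1, 2 and 2 matches, and Klf2 and Spns2 had none listed.

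Spns2, the exporter, was highest in venous endothelium and had a second site of expression in 2 fibroblast labels. It was 175 CPM [161 to 189] in vEC, 105 [95.4 to 115] in capEC and 67.4 [50.6 to 88.0] in aEC, so vEC was 2.59 times aEC [1.96 to 3.49] and capEC was 1.55 times aEC [1.17 to 2.10]. This order, venous first and arterial last, was not that of S1pr1, Klf2 or Plpp3, each highest in capEC. TMC4 had 61.4 CPM [56.9 to 66.0], not different from aEC beyond counting error, and TMC3 had 30.9 [27.6 to 34.4]. The remaining fibroblast labels were near 0: capFb had 0.804 CPM, TMC1 0.499 and TMC2 0.487, the last from 13 UMIs in 3080 cells.

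The pool of TMC1, TMC2 and capFb had 0.580 CPM, so TMC4 was 106 times higher [74.6 to 155], and TMC3 was 63.4 times TMC2 [36.5 to 120]. Cells with a Spns2 UMI were 71.5% of vEC, 39.1% of TMC4 and 21.9% of TMC3, against 0.422% of TMC2 and 0.893% of the cortical epithelial label cTEC, at median depths of 9585.5, 8717, 8143, 8269.5 and 10535 UMIs. Thinned to 1000 UMIs, the shares were 16.5% in vEC, 5.60% in TMC4, 3.16% in TMC3 and 0.0650% in TMC2. The level in TMC4 cells with no UMI of 4 endothelial markers (1073 cells) was 59.5 CPM and in such TMC3 cells (1004) 31.0, so it was as high without cells that held a UMI of these markers. Even so, within TMC4 Spns2 was found in 52.6% [44.4 to 60.6] of the 156 cells with a UMI of the endothelial marker Pecam1 and in 37.1% [34.3 to 40.1] of the others, at median depths of 9714 and 8520 UMIs. Thinned, these shares were 9.09% [1.12 to 29.2] of 22 cells and 5.54% [4.33 to 6.97] of 1227, and for the marker Cdh5 the unthinned shares were 41.7% of 12 cells and 39.0% of 1237, so neither pair differed beyond counting error. Of the fibroblast labels TMC3 and TMC4 also had the lowest fibroblast marker sums, 18269 and 7508 CPM against 45647 in capFb, and the highest mural marker sums, 199 and 446 CPM against 7.43 in capFb; the part of these classes in the Spns2 level was not tested.

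The mural label vSMC/PC, smooth muscle and pericytes, had 22.8 CPM of Spns2 [18.0 to 28.5] and 21.1 in its 404 cells with no endothelial marker UMI. TMC4 was 2.69 times higher. The nmSC label had 49.4 CPM [27.0 to 82.8], and MEC 13.3. Epithelial labels of at least 50 cells lay between 0.802 CPM in cTEC and 10.5 in mimetic(goblet). Over the 24 labels, 2 of 23 neighbouring pairs differed beyond counting error, vEC over capEC and capEC over aEC.

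**Figure D2:**
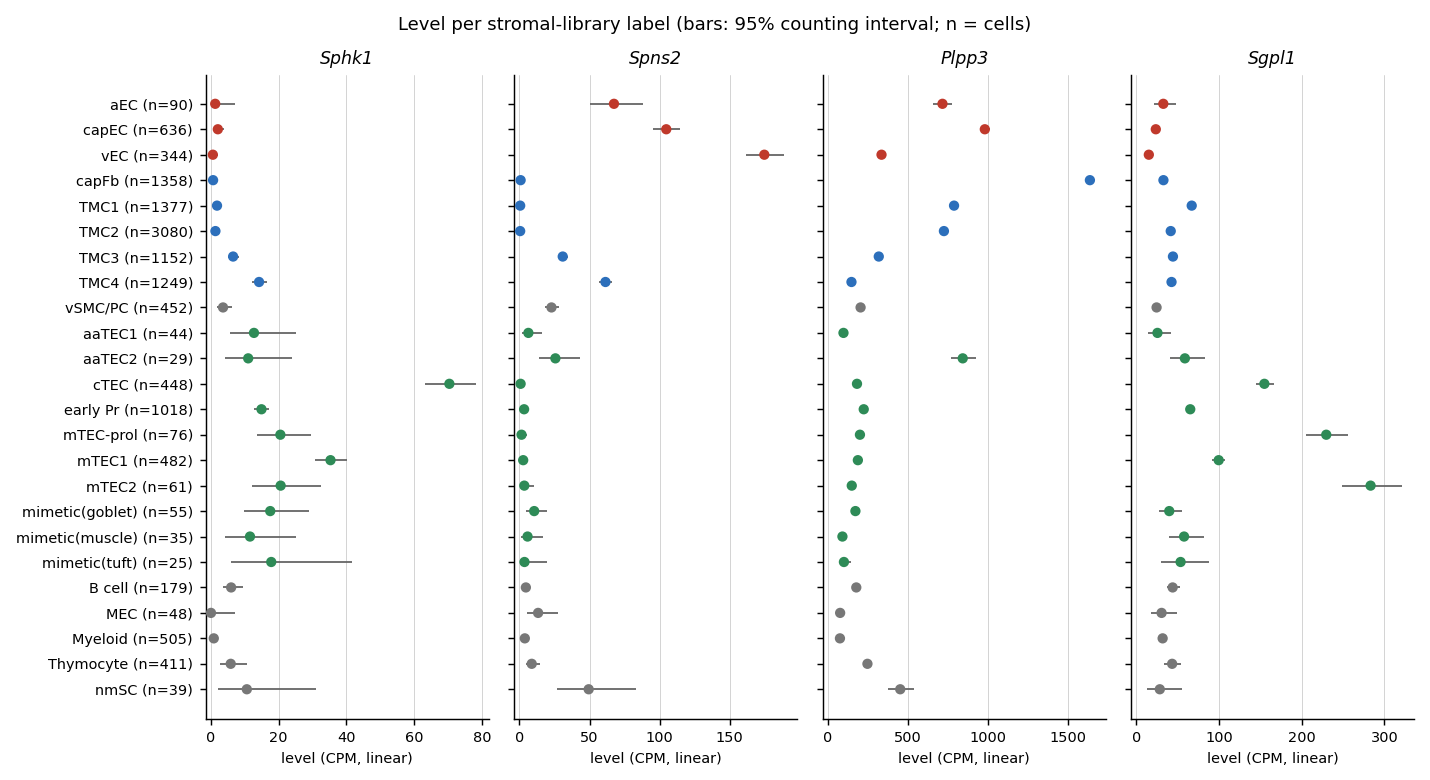
Level of Sphk1, Spns2, Plpp3 and Sgpl1 in each label of the stromal library, in CPM on linear axes that differ between panels, with bars for the 95% counting interval; endothelial labels are red, fibroblast labels blue, epithelial labels green and the rest grey. Sphk1 was highest in cTEC at 70.4 CPM, Spns2 in vEC at 175, Plpp3 in capFb at 1637 and Sgpl1 in mTEC2 at 283.

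Sphk1, the kinase, was mostly epithelial in stroma. It was 70.4 CPM [63.2 to 78.1] in cTEC, the cells that drive positive selection, 35.3 [30.8 to 40.2] in mTEC1, 20.6 in mTEC2, 20.5 in mTEC-prol and 14.9 [12.8 to 17.2] in early Pr. Levels in cTEC were 1.99 times those in mTEC1 [1.68 to 2.37], a ratio of 3.03 as the mean of single cells' CPM, and 4.72 times those in early Pr [3.93 to 5.68]. A Sphk1 UMI was found in 33.5% of cTEC and in 0.581% of vEC. Of the fibroblast labels, TMC4 had 14.2 CPM [12.1 to 16.5] and TMC3 6.53, while capFb, TMC1 and TMC2 lay between 0.619 and 1.78.

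TMC4 and TMC3 were therefore the fibroblast labels with both the kinase and the exporter. In TMC4, Sphk1 was 11.5 times the pool of TMC1, TMC2 and capFb [8.67 to 15.5], and within TMC4 a Spns2 UMI was found in 38.2% of the 144 cells with a Sphk1 UMI and in 39.2% of the 1105 without. These shares did not differ beyond counting error. The endothelial labels with the highest Spns2 had little Sphk1: 2.02 CPM in capEC, 1.25 in aEC and 0.553 in vEC, the last from 2 UMIs. The mural label vSMC/PC had 3.56 CPM of Sphk1 from 12 UMIs, 0.928 times the fibroblast pool [0.474 to 1.64] and 19.8 times below cTEC [11.2 to 38.6].

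Sphk2, the second kinase, did not pass 2-fold in any of the 4 stromal contrasts with fibroblasts: it was 13.6 CPM in endothelial cells, 17.2 in epithelial cells, 13.0 in vSMC/PC and 11.1 in myeloid cells, against 13.9 in fibroblasts.

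Plpp3, a phosphatase that faces outward and removes extracellular S1P, was highest in capFb. Its level was 1637 CPM there, with a UMI in 99.6% of cells, then 980 in capEC, 842 in aaTEC2, 788 in TMC1, 725 in TMC2, 715 in aEC, 451 in nmSC, 335 in vEC, 317 in TMC3 and 147 in TMC4. Along the fibroblast labels, capFb was 2.08 times TMC1 [2.03 to 2.12], TMC2 2.28 times TMC3 [2.20 to 2.37] and TMC3 2.16 times TMC4 [2.04 to 2.30], which makes capFb 11.2 times TMC4 [10.6 to 11.7]. Among fibroblast labels, capFb, TMC1 and TMC2 had more Plpp3 and less Spns2 and Sphk1 than TMC3 and TMC4. TMC4 had the least Plpp3 and the most Spns2 and Sphk1, but capFb was not the lowest in Spns2. Within endothelium Plpp3 in vEC was 0.341 times capEC [0.320 to 0.364], where Spns2 was higher in vEC, while both genes were lower in aEC than in capEC.

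**Figure D3:**
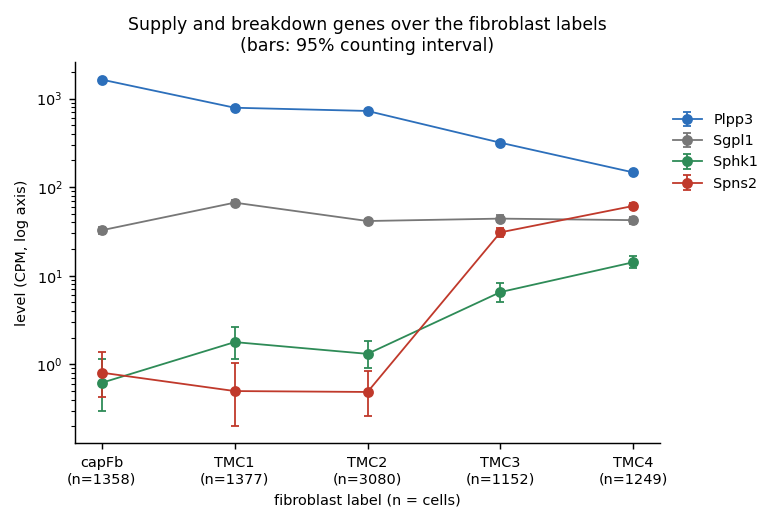
Level of Plpp3, Sgpl1, Sphk1 and Spns2 in the 5 fibroblast labels, in CPM on a log axis, with bars for the 95% counting interval and lines that only join points of 1 gene. Plpp3 went from 1637 CPM in capFb to 147 in TMC4, Spns2 from 0.804 to 61.4 and Sphk1 from 0.619 to 14.2, while Sgpl1 lay between 32.6 and 66.8.

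Because fibroblasts made up most of the library, low Plpp3 levels elsewhere were read against fibroblast RNA. The Thymocyte label had 247 CPM of Plpp3, and its 49 cells with no UMI of 4 fibroblast markers had 0 UMIs, an upper limit of 29.8 CPM. Myeloid had 74.7 CPM, and 10.3 in its 52 such cells. In the larger epithelial labels the levels were nearer to those of the whole label. The cTEC label had 181 CPM and 131 in 51 such cells. For early Pr the levels were 223 and 161 in 129 cells, and for mTEC1 187 and 159 in 43 cells. The 8 such cells of mTEC2 had 28.8 CPM [3.48 to 104] from 2 UMIs, and the 7 of mTEC-prol 280 from 30 UMIs. In endothelium capEC had 853 CPM in 98 such cells and vEC 245 in 52. The order of the 2 endothelial labels was the same in these cells, as it was for Spns2, at 223 CPM in vEC and 112 in capEC. Such cells had a lower median depth than their whole label in each label named here except mTEC-prol. The medians were 5997.5 against 9510 UMIs in Myeloid, 5788 against 11915.5 in mTEC1 and 19194 against 16804.5 in mTEC-prol. The part of depth in these levels was not tested.

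Sgpl1 was highest in the medullary epithelial labels mTEC2 and mTEC-prol, while the medullary label mTEC1 lay below cTEC. It was 283 CPM [249 to 321] in mTEC2, 230 [205 to 257] in mTEC-prol, 155 [144 to 166] in cTEC, 99.5 [91.9 to 108] in mTEC1 and 65.1 in early Pr. The level in mTEC2 was 2.85 times that in mTEC1 [2.45 to 3.30] and cTEC was 1.56 times mTEC1 [1.40 to 1.73]. Fibroblast labels lay between 32.6 CPM in capFb and 66.8 in TMC1, and the lowest of the 24 labels was vEC, at 14.9 CPM [11.2 to 19.5]. Venous endothelium thus had the highest Spns2 and the lowest Sgpl1 of the stromal labels, where capEC, the next lowest, had 23.4 CPM, 1.57 times more [1.12 to 2.22].

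Against the fibroblast pool, endothelial cells had 3 of the 6 genes at least 2-fold higher (S1pr1, Klf2 and Spns2) and 2 lower (Sphk1 and Sgpl1), where 15% of 17426 genes tested were higher and 18.1% lower. Spns2 was 130 against 13.5 CPM, 9.60 times [8.83 to 10.4], Sphk1 0.353 times [0.180 to 0.625] and Sgpl1 0.464 times [0.398 to 0.539]. The Sphk1 call rests on TMC3 and TMC4, since the pool of TMC1, TMC2 and capFb had 1.23 CPM and endothelial cells 1.35. Plpp3 was 693 against 783 CPM, 0.884 times [0.861 to 0.907], and this direction was not stable: the ratio was 1.11 in thinned cells and 1.11 as the mean of single cells' CPM.

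Epithelial cells (2295) had 2 of the 6 genes higher and 3 lower, where 24% of 18936 genes were higher and 15.5% lower. Sphk1 was 29.4 CPM against 3.84, 7.66 times [6.71 to 8.76], and Sgpl1 100 against 44.6, 2.25 times [2.14 to 2.36]. Plpp3 was 0.264 times [0.257 to 0.271], Spns2 0.3 times [0.245 to 0.363] and Klf2 0.409 times [0.385 to 0.433]. The Spns2 call rests on TMC3 and TMC4, since the pool of the other 3 fibroblast labels was at 0.580 CPM and epithelial cells at 4.05. Among cells with no fibroblast marker UMI, early Pr had 0.777 CPM of Spns2, from 1 UMI in 129 cells. Such cells of cTEC, mTEC1, mTEC2 and mTEC-prol had no Spns2 UMI, with upper limits of 8.76 to 53.0 CPM. The part of fibroblast RNA in the epithelial Spns2 level was not tested. For Plpp3, the epithelial 207 CPM lay above TMC4 at 147 and below the other 4 fibroblast labels.

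Mural cells (452) had 1 of 6 genes higher, S1pr1 at 2.23 times [1.53 to 3.16], and 1 lower, Plpp3 at 0.260 times, where 10.2% of 17046 genes were higher and 9.42% lower. Their Spns2 was 1.69 times the fibroblast level [1.32 to 2.13]. By point value, mural S1pr1 and Spns2 lay below TMC3 and TMC4 and above capFb, TMC1 and TMC2. Both directions thus depend on which fibroblast labels are pooled. The Myeloid label (505 cells) had none of 6 higher and 3 lower, where 16.6% of 17538 genes were higher and 33.9% lower. Those 3 were Plpp3 at 0.0954 times, Sphk1 at 0.216 times and Spns2 at 0.282 times, and Sgpl1 was 0.709 times [0.609 to 0.820]. The Spns2 and Sphk1 calls rest on TMC3 and TMC4. Against the pool of TMC1, TMC2 and capFb, Myeloid was higher in Spns2 and under 2-fold lower in Sphk1. The Myeloid label had 4808 CPM of Lyz2 but 47.7 of Cd68, a macrophage marker, which was 488 in the B+myeloid label of the thymocyte library, where Sgpl1 was 139 CPM. These labels come from libraries prepared differently, and the part of cell type in their Sgpl1 levels was not tested.

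The other receptors divided the stroma among them. S1pr2 was between 30.5 and 43.2 CPM in the 5 fibroblast labels and was 0.134 times that level in pooled endothelial cells [0.0986 to 0.179]. S1pr3, which in vessels acts on smooth muscle, was 88.5 CPM in mTEC-prol, 80.4 in TMC4, 47.1 in TMC3, 42.4 in mTEC1 and 29.1 in vSMC/PC, against 2.60 in capFb, so within fibroblasts it was highest in TMC4 and TMC3, as Spns2 and Sphk1 were. S1pr5 was 46.9 times higher in epithelial cells than in fibroblasts [29.6 to 79.0], with 18.4 CPM in cTEC and 14.2 in early Pr. S1pr4 was 29.0 CPM in Myeloid cells.

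**Figure D4:**
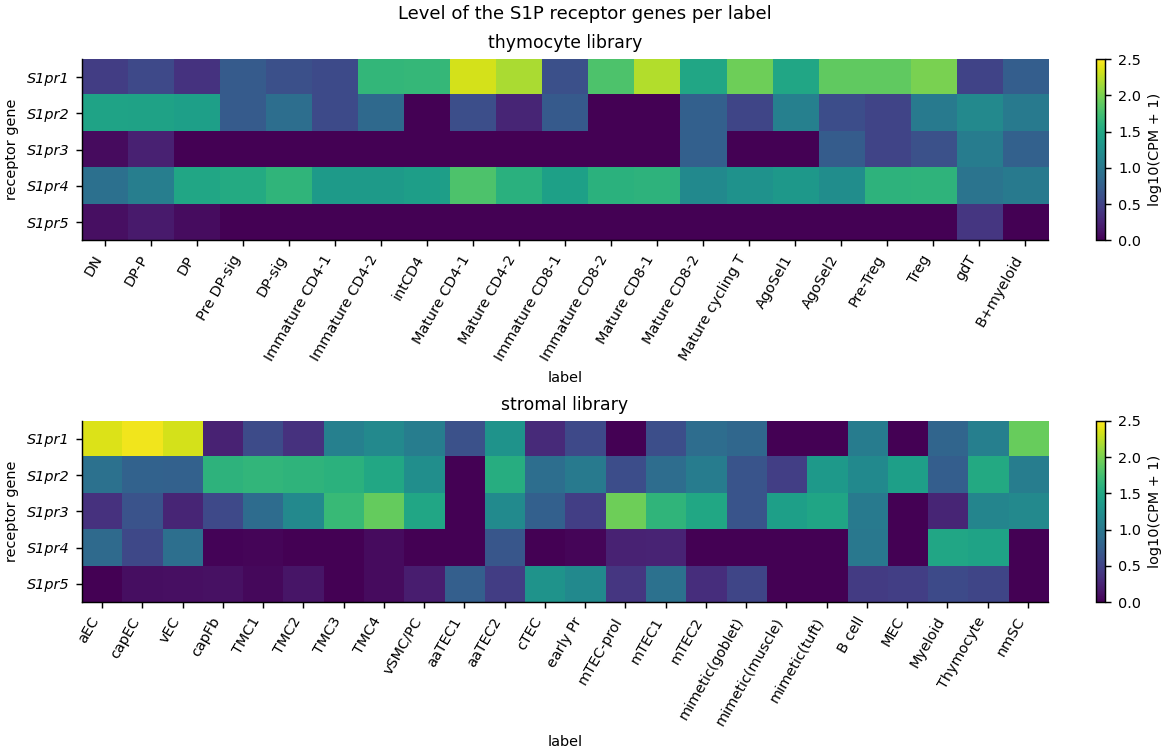
Level of the 5 S1P receptor genes per label, as log10(CPM + 1) in colour, with the thymocyte library above and the stromal library below. S1pr1 is brightest in the mature thymocyte labels, up to 219 CPM, and in the 3 endothelial labels, up to 277, while S1pr2 is at 24.5 CPM in DP and 1.65 in mature cells.

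Of the remaining breakdown genes, Plpp1, a phosphatase related to Plpp3, was 674 CPM in TMC2 and 333 in capEC, and lower than in the fibroblast pool in epithelial, mural and myeloid cells. Plpp2 was 6.10 times higher in epithelial cells [5.06 to 7.37]. In the breakdown list, 3 of 6 tested were higher and 2 lower in epithelial cells, against 24% and 15.5% of all genes. In endothelial cells none of 5 tested was higher and 2 were lower, against 15% and 18.1%. Regulators and relatives of Klf2 were higher in endothelial cells for 6 of 14, where 15% of all genes were, with a median log2 ratio of 0.82 against -0.02 for all genes: besides Klf2, these were Klf4 (2.83 times), Klf6, Klf7, Mef2a and Mef2c, a factor upstream of Klf2 in endothelium (9.35 times). In the exporters' list Spns2 passed 2-fold in endothelial cells, and Apom, a carrier of S1P, had a ratio of 2.62 from 5 and 17 UMIs with an interval that includes 1 [0.755 to 7.39]. The red-cell exporter Mfsd2b was under 1 CPM in each of the 5 pooled classes.

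Likeness over the 18 stromal labels of at least 50 cells was computed the same way for 13056 genes. The genes closest to Spns2 were Aqp1 (0.983), Adcy4 (0.976), Ecscr (0.961), Thsd7a (0.941) and Rnf125 (0.936), and its coefficient was 0.894 with S1pr1 and -0.36 with Sphk1. Plpp3 was closest to Fat4 (0.913), Dnase2 (0.904), Cyp2j4 (0.890), Adarb1 (0.887) and Arhgef10 (0.883). For Sphk1 they were Hadh (0.924), Ptpn3 (0.905), Zmynd15 (0.901), Zfp219 (0.895) and Fam83h (0.888), and for Sgpl1 Tenm2 (0.941), Foxn1, the master factor of thymic epithelium (0.923), Cryl1 (0.921), Uchl1 (0.913) and Pkp1 (0.913). Sphk1 and Sgpl1 had a coefficient of 0.742 with each other.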

How the data were processed

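UMI counts per gene and cell for 2 libraries were used as deposited, with the cell annotation tables the authors deposited beside them, which also give the percent of mitochondrial UMIs per cell. Cell Ranger 8.0.0, Seurat 5.3.0 and the rat build mRatBN7.2 are named in the submitters' processing notes, with no further step given. The medians over annotated cells of that deposited percent were 1.11% in the stromal and 4.43% in the thymocyte library.

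Each cell took the authors' projected label or, where it had none, their initial cluster. UMIs were summed per label and divided by the label's total to give CPM, with exact Poisson intervals for levels, Clopper-Pearson intervals for shares and exact conditional intervals for ratios, at 95%. Mature single-positive cells pool the 4 labels Mature CD4-1, CD4-2, CD8-1 and CD8-2. A gene was counted as higher or lower at 2-fold or more, if it had at least 20 UMIs in the 2 groups together; a group under 3 UMIs was set to 3. Cells were thinned to 1000 UMIs with a fixed seed, leaving out 83 stromal and 51 thymocyte cells below that depth. No doublet caller was run, and barcodes without annotation entered no comparison.

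Besides the 6 genes, text names list genes past 2-fold, defining genes of a list and the 5 genes most like each of the 6, except that 1 gene is not reported here. The genes and lists were chosen with earlier results of these data known, and the immediate early list and the label pairs were added after levels were seen. The computation of ratios and intervals was tested on simulated Poisson counts, which hold no spread between cells and no RNA of other classes. Alternatives covered the cells kept, how they were summed, the totals, depth, labels, cells with RNA of another class and the minimum of UMIs. Scripts ran in Python 3.11.15 with pandas 2.3.3 for tables, NumPy 2.4.6 for arrays, SciPy 1.17.1 for intervals and matplotlib 3.10.9 for figures.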

Additional observations from a re-analysis of the deposited data

Results flagged for a closer look

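The stromal library also held 2934 barcodes without annotation, with 8663291 UMIs and a median of 1219.5 per barcode, which entered none of the comparisons. All 6 genes were above the level that 3 UMIs would give there, 0.346 CPM. Plpp3 was at 203 CPM against 579 in the annotated cells, Klf2 at 75.1 against 168, S1pr1 at 9.93 against 21.1 and Spns2 at 12.4 against 18.9. Sphk1 was at 18.0 CPM against 9.25 and Sgpl1 at 94.1 against 54.1, so the 2 genes that were highest in epithelial labels were higher in these barcodes than in annotated cells, and the other 4 were lower. The 28 such barcodes of the thymocyte library held 1 Plpp3 UMI and none of the other 5 genes.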

How the results depend on the processing

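No paired analysis was possible because neither library had a second sample of its kind. The ratio of Plpp3 in endothelial over fibroblast cells, 0.884, turned to 1.11 in thinned cells and to 1.11 as the mean of cells' CPM. S1pr1 in Mature CD4-1 over Mature CD4-2 went from 1.44 to 0.700 in thinned cells, where the counting interval held both directions. Klf2 in mature single-positive over DP cells, 20.1, was 24.7 in thinned cells, 16.4 with the initial clusters and 23.6 with totals that leave out mitochondrial, ribosomal protein and haemoglobin genes. Plpp3 in epithelial over fibroblast cells, 0.264, was 0.245, 0.256 and 0.280 under the same settings and 0.248 as the mean of cells' CPM. With that mean, Sgpl1 in myeloid over fibroblast cells was 0.919 (0.709 in sums) and Spns2 in endothelial over fibroblast cells 8.42 (9.60 in sums). In thinned cells Sphk1 in vSMC/PC over fibroblasts was 0, with an upper limit of 3.03, the S1pr1 share differed by 2.55 points between cells with and without Klf2, and the genes past 2-fold were 4371 of epithelial cells (7478 as reported, 9523 with no minimum of UMIs) and 5481 of myeloid cells (8874 as reported, 10823 with no minimum). Levels at least 2-fold above the gene's median label numbered 38 of 138 pairs of gene and label, and 24 of 82 with the initial clusters. Of the 6 genes, 3 were past 2-fold in either direction in mature cells, 5 with those clusters and 2 in thinned cells. The count for endothelial cells was 4 to 5, for epithelial cells 5 to 6, for myeloid cells 3 to 4 and for mural cells 2 throughout. The other settings kept the direction: S1pr1 in mature over DP cells ranged from 108 to 151, Sphk1 from 42.3 to 262, Spns2 in TMC4 over TMC1, TMC2 and capFb from 97.1 to 112, Spns2 in vEC over capEC from 1.65 to 1.99, Sphk1 in cTEC over mTEC1 from 1.96 to 3.03 and Plpp3 in capFb over TMC4 from 10.6 to 12.1. The ratios between single labels, and the setting that leaves out barcodes annotated in both libraries, were chosen after seeing the data. Causes of these shifts were not tested. Depth limits Sphk1 in mural and endothelial cells and S1pr1 in the first immature labels, which rest on 12 UMIs or fewer per label.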

Other observations

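The label Myeloid of the stromal library had high levels of several sphingolipid genes outside the 6. Sgpp2, a phosphatase of S1P in the endoplasmic reticulum, was 104 CPM there against 0.177 in fibroblasts, from 630 and 14 UMIs, and 0.418 in the B+myeloid label of the thymocyte library. Degs2 was 105 CPM in Myeloid and 0.0759 in fibroblasts, and Sgms2, a sphingomyelin synthase, 353 and 2.18. Of 19 tested genes that supply sphingosine, 4 were higher and 9 lower in Myeloid than in fibroblasts, against 16.6% and 33.9% of all genes tested; among the lower were Degs1 at 0.163 times and Asah1, the lysosomal ceramidase, at 0.426 times. In epithelial cells Sgms2 was 16.4 times the fibroblast level and Cers3 19.3 times, the latter from 113 and 16 UMIs.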
